A study of Mus musculus with 5 samples.

Results

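Open chromatin was examined on the way from mesoderm to macrophages at 10 genes of bone morphogenetic protein (BMP) signaling, which are Bmp2, Bmp4, Bmp7, Smad1, Smad5, Smad6, Smad7, Id1, Id2 and Id3. They were chosen by name, as 10 of the 21787 protein-coding genes of the RefSeq annotation, and the rule that assigned sites to them used no measured value, although earlier results of these data were known when they were chosen. The assay was DNaseI-seq, in which the nuclease DNaseI cuts open chromatin and the cut regions are listed as DNaseI hypersensitive sites (DHSs). The cells came from in vitro differentiation of a single line of mouse ES (embryonic stem) cells, of strain 129, that carries a GFP reporter for the mesodermal gene Brachyury (Bry) and had been grown on embryonic fibroblasts. From it 5 populations were sorted, all of which share this reporter. Mesoderm cells (MES) were sorted as Bry:GFP+ without Flk1 and hemangioblasts (HB) as Bry:GFP+ with Flk1. Cells of the hemogenic endothelium (HE) were Bry:GFP+, carried Tie2 and cKit and lacked CD41, progenitors of blood (HP) had gained CD41, and macrophages (MAC), grown from CD41+ cells, were taken by CD11b. There was 1 list of sites per stage, so no difference between stages could be tested, and counts are given as they stand in each list.

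BMP ligands such as BMP2, BMP4 and BMP7 bind serine/threonine kinase receptors, which phosphorylate SMAD1 and SMAD5. These join SMAD4 and bind DNA at GC-rich sites and at GTCT boxes. The genes of the Id proteins, which bind E proteins of the basic helix-loop-helix class and keep them from DNA, are the classical direct targets, and the inhibitory SMAD6 and SMAD7 are induced by the pathway and dampen it. In some protocols BMP4 is used to bring ES cells to mesoderm and blood.

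The lists held between 17734 sites (HP) and 37456 sites (MAC, whose label gives 2 replicates under 1 sample, without saying whether both entered the list), and the median width of a site ran from 600 bp at MAC to 1200 bp at HE. For MAC the study reports fewer sites than the list holds, and for each other stage the same number. The number of reads behind each list is unknown from these files, the totals of aligned reads that the study gives were not used here, and the absence of a site means only that none was listed. The labels were checked at the transcription start sites (TSSs) of marker genes. Sites lay at the promoter of Brachyury (T) at MES and HB, of Tek (encoding Tie2) at HE, of Itga2b (CD41) at HE and HP, and of Itgam (CD11b) and Csf1r in MAC, while Kdr (Flk1) had one at all stages, the Flk1- mesoderm included. Other markers reached beyond their labels, with sites of Kit (cKit) from MES to HP, of the macrophage gene Spi1 in HE, HP and MAC, and of the ES cell genes Pou5f1 in MES and Nanog in MES, HB and HE. Of the fibroblast genes Col1a1, Col1a2 and Thy1, 3 of 3 had a promoter site in MES, HB and HE, 1 of 3 (Col1a1) at HP and 0 of 3 at MAC. Each population was sorted for Bry:GFP or for surface markers, and how pure the sorted cells were is unknown from these lists. The part of fibroblasts in the sites described here was not tested.

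Sites were assigned to a gene if they lay within 1 kb of one of its TSSs, or if they lay in the gene or up to 100 kb from its TSS and no other protein-coding gene was nearer. A promoter or region is called open at a stage if it had a listed site there. By this rule the 10 genes had 41 sites at MES, 50 at HB, 65 at HE, 32 at HP and 40 at MAC. The Smad genes accounted for 23, 28, 44, 20 and 18 of these in the same order, the Id genes for 12, 11, 16, 9 and 16, and the Bmp genes for 6, 11, 5, 3 and 6. Per 100 kb of assigned sequence the members had 3.05 sites at MES, 3.72 at HB, 4.83 at HE, 2.38 at HP and 2.97 at MAC. Over all protein-coding genes the same densities were 1.47, 1.63, 2.12, 1.22 and 2.36, so the members were denser in each list as deposited, and least so in MAC. When every list was cut to its widest 17734 sites, the length of the shortest list, the members had 32 sites at MES, 35 at HB, 34 at HE, 32 at HP and 14 at MAC. In these lists of equal length the members had 2.38, 2.6, 2.53, 2.38 and 1.04 sites per 100 kb from MES to MAC and all genes 1.22, 1.21, 1.21, 1.22 and 1.18. The higher count in HE was thus not seen there, and in MAC the members were no longer denser than all genes.

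**Figure D1:**
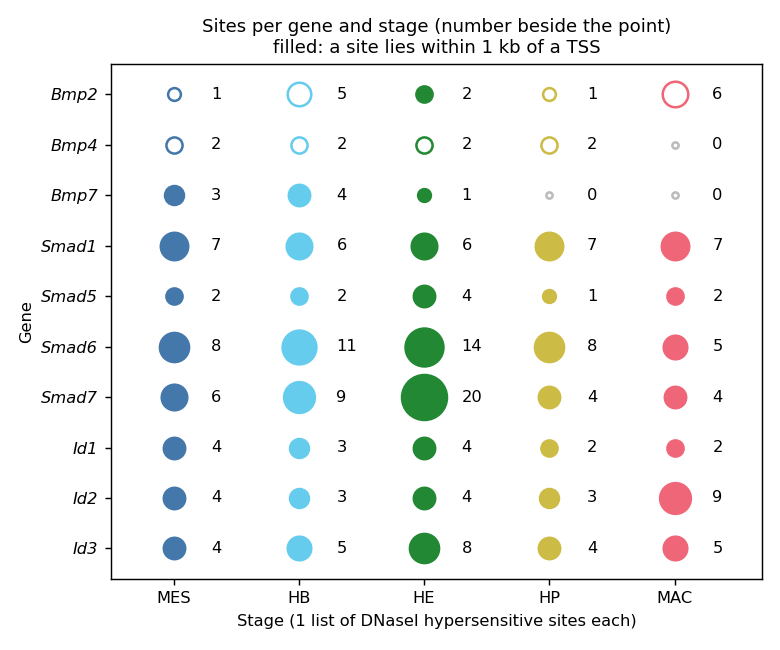
Number of DHSs assigned to each of the 10 genes (rows) in the list of each stage (columns). Point area grows with the number printed beside it, and a filled point means that at least 1 site lay within 1 kb of a TSS. Smad7 reached 20 sites at HE, and the filled points of the 4 Smad and 3 Id genes run through all 5 stages.

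Promoter sites differed between the ligand genes and the rest. All 4 Smad genes and all 3 Id genes had a promoter site at each of the 5 stages, whereas none of the 3 ligand genes did. In lists of equal length Smad1, Smad5 and Smad6 had no promoter site in MAC, which left 4 of 10 members with one in MAC and the same 4 with one at all 5 stages, against 38.6% and 34.4% of all genes in those lists. In total 8 of 10 members had a promoter site in MES (55.5% of all protein-coding genes), 8 at HB (57.1%), 9 at HE (59.8%), 7 at HP (48.6%) and 7 at MAC (48.7%). A promoter site at all 5 stages was found in 7 of 10 members and in 42.0% of genes. Sites beyond 1 kb were present for 10 members in MES (26.1% of genes), 10 at HB (28.3%), 9 at HE (37.4%), 8 at HP (21.6%) and 7 at MAC (42.5%). In the lists as deposited, the family thus stood farther above the share of all genes in sites away from the promoter than in promoter sites at every stage. Having such a site also depends on how much sequence is assigned to a gene. This was 1346 kb for the 10 members and 1505781 kb for all 21787 genes, and the shares were not adjusted for it.

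The promoter sequences of 6 members could be matched in RefSeq (build GRCm38.p6, the same primary sequence as mm10). The 250 bases before the TSS are shown to compare the Bmp4 promoter, which no site overlapped at any stage, with 5 promoters that were overlapped at all 5. Capitals mark CpG dinucleotides, and each is written 5′ to 3′ on the strand of its gene. The windows are chr14:46390670-46390919 (minus strand) for Bmp4, chr8:79399429-79399678 (minus) for Smad1, chr13:56702760-56703009 (plus) for Smad5, chr9:64022060-64022309 (minus) for Smad6, chr12:25096093-25096342 (minus) for Id2 and chr4:136143572-136143821 (plus) for Id3.
Bmp4: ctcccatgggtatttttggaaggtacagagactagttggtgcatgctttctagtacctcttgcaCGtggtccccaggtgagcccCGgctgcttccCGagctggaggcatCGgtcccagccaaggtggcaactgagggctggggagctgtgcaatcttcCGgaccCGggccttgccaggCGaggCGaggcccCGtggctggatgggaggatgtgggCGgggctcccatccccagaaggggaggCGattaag
Smad1: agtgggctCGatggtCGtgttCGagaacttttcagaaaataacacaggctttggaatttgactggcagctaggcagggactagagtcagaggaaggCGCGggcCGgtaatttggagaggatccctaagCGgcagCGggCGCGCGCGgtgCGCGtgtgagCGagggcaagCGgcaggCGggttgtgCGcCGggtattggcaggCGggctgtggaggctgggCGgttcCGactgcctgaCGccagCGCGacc
Smad5: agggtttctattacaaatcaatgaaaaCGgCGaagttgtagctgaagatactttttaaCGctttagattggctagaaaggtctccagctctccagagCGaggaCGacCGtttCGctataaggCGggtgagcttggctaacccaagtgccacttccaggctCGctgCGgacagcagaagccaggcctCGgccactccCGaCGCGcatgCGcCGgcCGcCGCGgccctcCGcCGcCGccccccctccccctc
Smad6: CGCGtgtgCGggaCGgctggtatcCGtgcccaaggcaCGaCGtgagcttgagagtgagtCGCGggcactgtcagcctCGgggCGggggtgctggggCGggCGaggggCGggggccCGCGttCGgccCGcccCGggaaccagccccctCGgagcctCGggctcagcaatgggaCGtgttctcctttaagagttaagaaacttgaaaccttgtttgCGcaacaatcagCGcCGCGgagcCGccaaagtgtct
Id2: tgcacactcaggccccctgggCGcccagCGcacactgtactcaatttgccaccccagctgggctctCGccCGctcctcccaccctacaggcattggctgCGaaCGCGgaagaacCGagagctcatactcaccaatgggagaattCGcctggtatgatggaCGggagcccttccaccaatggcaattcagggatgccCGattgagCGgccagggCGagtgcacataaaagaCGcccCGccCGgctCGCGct
Id3: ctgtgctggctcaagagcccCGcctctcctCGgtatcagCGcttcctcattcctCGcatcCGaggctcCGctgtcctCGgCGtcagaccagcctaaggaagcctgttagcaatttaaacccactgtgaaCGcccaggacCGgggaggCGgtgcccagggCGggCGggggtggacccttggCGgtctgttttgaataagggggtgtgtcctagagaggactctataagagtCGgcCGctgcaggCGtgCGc
GC content was similar, at 63.2% for Bmp4 and between 60.0% and 66.8% for the other 5. CpGs were not, with 11 in Bmp4, 18 each in Id2 and Id3, 22 in Smad5, 25 in Smad1 and 27 in Smad6. The ratio of observed to expected CpG was 0.45 in Bmp4, 0.74 in Id2, 0.73 in Id3, 0.99 in Smad5, 1.08 in Smad1 and 0.98 in Smad6. With limits of 0.5 on the GC share and 0.6 on this ratio, the 5 promoters with sites counted as CpG-rich and that of Bmp4 did not. By the same limits 31.0% of 32851 RefSeq promoter windows were CpG-rich. For the members not shown, the central 500 bp of the promoter regions were used. Smad7 (ratio 0.91) and Bmp7 (0.73 nearest its TSS) were CpG-rich there, and Id1 (0.46 and 0.30) and Bmp2 (0.33) were not. Smad7 and Id1 had a promoter site at all 5 stages, Bmp7 in MES, HB and HE and Bmp2 in HE. CpG-rich sequence and promoter sites thus did not go together in every member.

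Bmp4, which encodes a ligand that some protocols use to induce mesoderm, had no promoter site at any stage, a pattern shared by 34.3% of genes. It had the same 2 elements in 4 stages and none in MAC. The first lay in an intron of Bmp4, about 3.3 kb downstream of the TSS. Its site was 600 bp wide at MES, 1300 bp at HB, 1500 bp at HE (chr14:46386658-46388157) and 800 bp at HP. The second was intergenic, 46.1 kb upstream in HB, HE and HP, and was 600 bp wide at MES, 1200 bp at HB (chr14:46436186-46437385), 800 bp at HE and 700 bp at HP. Both were widest at HB or HE and both were missing from the MAC list, which is the longest. The central 200 bases of each merged region are shown on the plus strand, again with CpGs in capitals, as the only elements of Bmp4 in these lists. The windows are chr14:46387411-46387610 for the intron and chr14:46436736-46436935 for the upstream element.
Bmp4 intron: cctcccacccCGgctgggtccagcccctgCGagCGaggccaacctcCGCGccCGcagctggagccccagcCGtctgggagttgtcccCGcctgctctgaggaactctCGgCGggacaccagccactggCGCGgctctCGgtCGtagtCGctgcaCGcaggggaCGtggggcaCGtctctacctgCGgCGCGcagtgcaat
Bmp4 upstream: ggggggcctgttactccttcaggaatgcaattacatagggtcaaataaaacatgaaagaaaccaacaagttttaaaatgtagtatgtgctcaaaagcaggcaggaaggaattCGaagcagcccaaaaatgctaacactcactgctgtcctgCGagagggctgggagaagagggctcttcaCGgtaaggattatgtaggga
These were unlike in composition, with 72.0% GC and 21 CpGs in the intron and 45.5% GC and 3 CpGs upstream. The start of the noncoding gene Gm15222 lay within 1 kb of the intron sites in RefSeq. In the GENCODE annotation a noncoding transcript of Bmp4 itself starts there, and with GENCODE TSSs, tried after the data had been seen, Bmp4 gained a promoter site in MES, HB, HE and HP.

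Bmp2, a ligand close to BMP4 in sequence, had 1 site at MES, 5 at HB, 2 at HE, 1 at HP and 6 at MAC. Its promoter was called in HE only, a pattern found in 3.02% of genes. That site (chr2:133552670-133554969) was 2300 bp wide, as wide as the top 0.934% of the HE list, and its middle lay in an intron 1.7 kb downstream of the TSS. The call depended on the distance allowed, since the promoter had no site in any stage within 100 bp of the TSS and had sites in HE and MAC within 2 kb. In MAC the nearest site lay 1.6 kb upstream and was 400 bp wide. The elements of Bmp2 changed from list to list. Of its 14 merged regions 13 were seen in a single stage, 4 at HB, 2 at HE, 1 at HP and 6 at MAC, and the exception was an intergenic element 83.4 kb downstream that MES and HB shared. Over all merged regions 60.2% were seen in a single stage. In the lists of equal length Bmp2 kept 1 site each in MES, HB, HE and HP and 0 at MAC, so most of these were narrow sites.

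Bmp7, a ligand with roles in kidney and bone, had 3 sites at MES, 4 at HB, 1 at HE and 0 in both HP and MAC. It was the only member with no site at all in 2 of the lists. Its promoter was open in MES, HB and HE, as in 3.84% of genes. In MES a site of 800 bp spanned the TSS, with its middle upstream, and another of 700 bp lay 1.3 kb downstream in an intron. HB had a similar pair of 700 bp and 1500 bp, and in HE a single site of 1500 bp (chr2:172939070-172940569) spanned the interval between them. An intron element 15.1 kb from the TSS was listed in MES and HB, and HB had a further site 77.2 kb downstream. All Bmp7 sites thus lay in the stages before CD41+ cells. The plot of the Bmp loci sets this beside the 2 aligned elements of Bmp4 and the scattered sites of Bmp2.

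**Figure D2:**
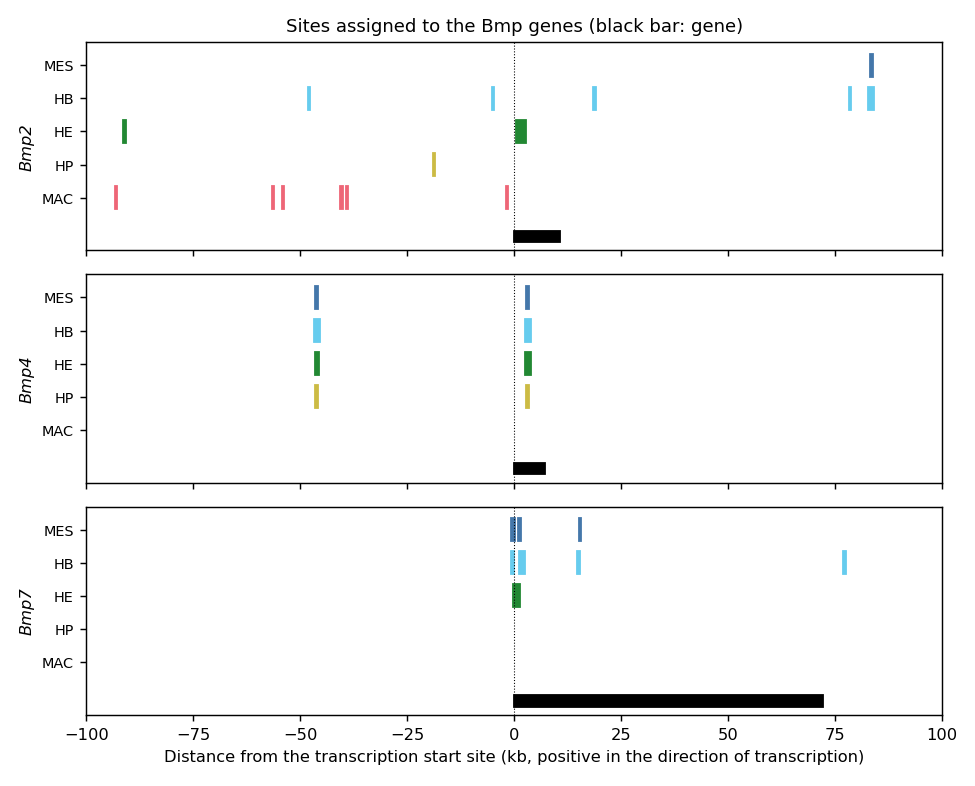
DHSs assigned to Bmp2, Bmp4 and Bmp7 by distance from the TSS in kb, positive in the direction of transcription, with 1 row per stage and the gene as a black bar. Each colored block is 1 site, drawn to scale or at a minimum width. Bmp4 shows 2 aligned elements in MES, HB, HE and HP, Bmp7 shows no block in HP or MAC, and the blocks of Bmp2 rarely align between rows.

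The Smad genes that carry the signal were open at the promoter throughout. Smad1 had 7 sites at MES, 6 at HB, 6 at HE, 7 at HP and 7 at MAC. In lists of equal length it had 5, 5, 3, 7 and 3 in the same order. In the short HP list as few as 0.266% of genes had 7 or more sites. The elements behind similar counts differed between the lists. Of the 22 merged regions of Smad1, 15 were open in a single stage and 1, the promoter, in all 5. Over all merged regions the shares were 60.2% and 13.2%. With sites merged at their full width, 13 of 20 regions of Smad1 were open in a single stage, against 57.6% of all regions. An intron element 16.3 kb downstream of the TSS was listed in MES (800 bp), HB (1200 bp) and HP (400 bp), and one 20.4 kb downstream in MES and HB. A further intron element, 24.1 kb downstream in HE, had sites of 1800 bp at HE (chr8:79374424-79376223), 700 bp at HP and 900 bp at MAC and none in MES or HB. An upstream element, 74.1 kb away in MES, was listed in MES, HB and HP, and another 56.7 kb upstream in MES and HB. The introns of Smad1 thus held one set of sites in MES and HB and another from HE on, and HP held sites of both sets.

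The Smad1 promoter site narrowed at the end of the series. It was 1500 bp wide at MES, 1400 bp at HB, 2100 bp at HE, 1300 bp at HP and 300 bp at MAC (chr8:79399326-79399625). Smad5, whose product acts alongside SMAD1, behaved the same way at its TSS. Its promoter site was 1200 bp wide at MES, 1500 bp at HB, 1900 bp at HE and 1500 bp at HP, and MAC had 2 sites of 500 and 200 bp in its place. Promoter sites of MAC were narrow in general, with a median of 800 bp over the promoters of all genes against 1600 bp at HE, and both MAC promoter calls were lost when each list was limited to its widest 17734 sites. Away from the TSS Smad5 had little, with 2 sites in all in MES, 2 at HB, 4 at HE, 1 at HP and 2 at MAC. An intron element 7.1 kb from the nearest TSS was shared by HB and HE, and the other 3 lay upstream in MES alone (44.8 kb) or HE alone (40.7 and 23.7 kb).

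The inhibitory Smad genes had the most sites when the 5 lists were summed, 46 for Smad6 and 43 for Smad7 against 33 for Smad1. In lists of equal length the sums were 32 for Smad6, 23 for Smad1, 20 for Id3 and 19 for Smad7. Per 100 kb of assigned sequence, Id1 (44.8 sites over the 5 lists) and Id3 (43.7) were above Smad6 (31.2), Smad1 (21.7) and Smad7 (21.5). Smad6 had 8 sites at MES, 11 at HB, 14 at HE, 8 at HP and 5 at MAC. Its summed sites were matched or passed by 0.142% of genes. Its promoter site was among the widest of the MES, HB and HP lists, at 1700 bp at MES (as wide as the top 0.920% of the list), 1800 bp at HB (1.45%), 1800 bp at HE (10.9%) and 1800 bp at HP (0.564%). In MAC there were 2 sites of 600 and 500 bp in this place. The loss of width in MAC was thus seen at Smad1, Smad5 and Smad6 alike.

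Many elements of Smad6 were held across stages. An intron element 3.7 kb from the TSS was listed from MES to HP, with widths of 1000 bp at MES, 2200 bp at HB, 1700 bp at HE and 700 bp at HP. The HB site (chr9:64016901-64019100) was as wide as the top 0.170% of its list. Upstream of the gene lay an element at 23.3 kb that was listed from MES to HP, with widths of 600, 1300, 1600 and 1200 bp in that order. Next to it, 28.3 kb upstream, lay the only element beyond a promoter that Smad6 had in all 5 stages, with 1100 bp at MES, 1400 bp at HB, 1800 bp at HE (chr9:64049501-64051300), 1200 bp at HP and 600 bp at MAC. The start of the noncoding gene 1110036E04Rik lay within 1 kb of it. In lists of equal length Smad6 had 6, 8, 10, 8 and 0 sites from MES to MAC, so its MAC sites, this one included, were lost. Farther upstream, sites 38.4 kb away were listed in HB, HE and HP and sites 44.9 kb away in HB and HE. Upstream elements of Smad6 were thus added from MES to HE and lost from HE to MAC.

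Smad7, which encodes the other inhibitory Smad, had 6 sites at MES, 9 at HB, 20 at HE, 4 at HP and 4 at MAC. The 20 sites of HE were the highest count of any member in any list, and 4 genes of 21787 (0.0184%), Smad7 included, had as many or more. In lists of equal length Smad7 had 3 sites at MES, 4 at HB, 7 at HE, 4 at HP and 1 at MAC, so HE still had most but the gap was smaller. Of its 25 merged regions 10 were open in HE only, against 17.1% of all merged regions. Within the gene, HE had 5 intron sites, at 2.8, 5.5, 8.3, 10.0 and 17.9 kb, and only the one at 8.3 kb was seen in other stages (MES, HB and HP). Upstream, an element 24.3 kb away was shared by MES (900 bp), HB (1100 bp) and HE (1200 bp), and one 47.7 kb away by MES, HE and HP. The promoter site was 1500 bp at MES, 1600 bp at HB, 1500 bp at HE, 1400 bp at HP and 900 bp at MAC. Some of the farther sites lay in introns of the neighboring genes Dym and Ctif, and were counted for Smad7 because its TSS was nearest. The plot of the Smad loci shows the HE row of Smad7 filled on both sides of the gene.

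**Figure D3:**
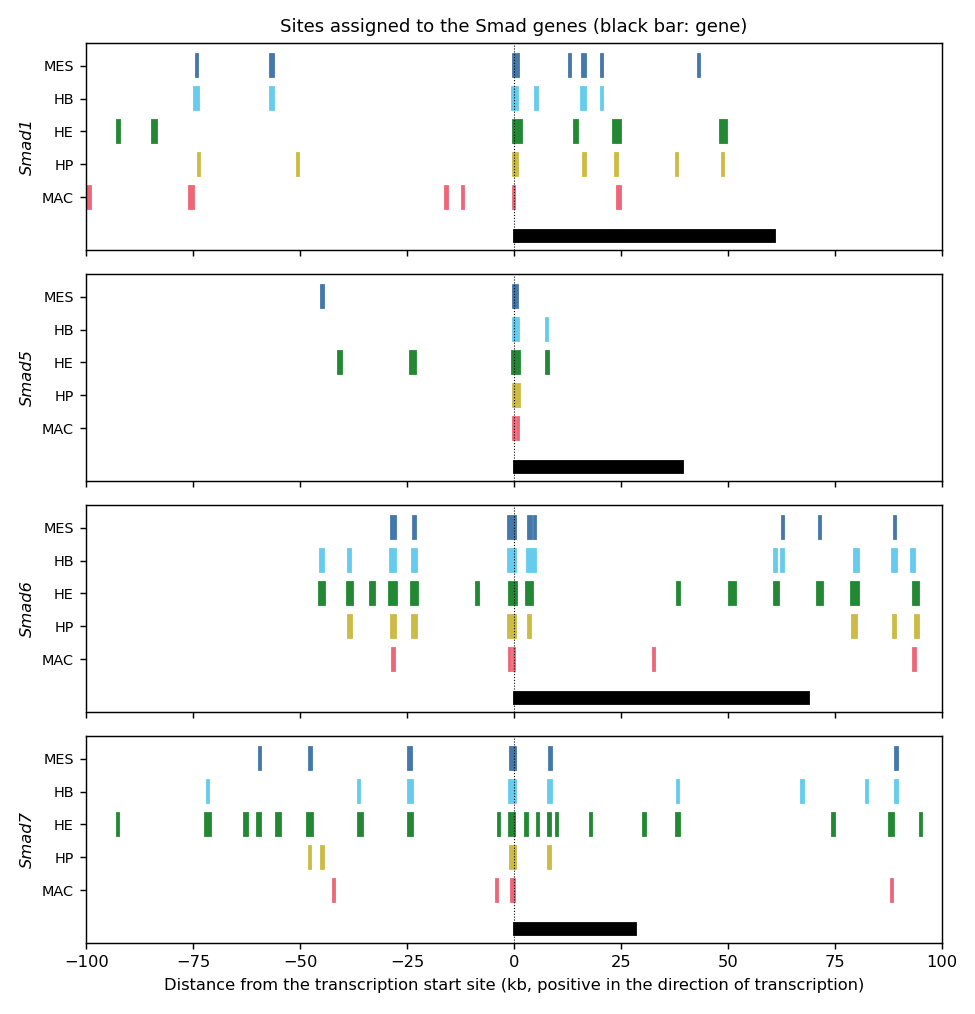
DHSs assigned to Smad1, Smad5, Smad6 and Smad7 by distance from the TSS in kb, positive in the direction of transcription, with 1 row per stage and the gene as a black bar. Smad6 shows aligned upstream elements at 23.3 and 28.3 kb from MES to HP, Smad7 has 20 blocks in HE, and the MAC rows are sparse for both.

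Each Id gene had elements within 5 kb of its TSS beside the promoter. Id1 had 4 sites at MES, 3 at HB, 4 at HE, 2 at HP and 2 at MAC. Its promoter site was 1600 bp wide at MES, 1900 bp at HB (chr2:152734698-152736597, as wide as the top 0.886% of the list), 1800 bp at HE, 1500 bp at HP and 1300 bp at MAC. It was thus wide at every stage, MAC included. The 2 elements downstream of the gene followed different courses. The nearer, at 3.1 kb, was listed in MES (1000 bp), HB (1000 bp) and HE (600 bp). The farther, about 5.8 kb away, was listed in HE (1200 bp), HP (1200 bp) and MAC (800 bp). A MES site of 300 bp, 6.3 kb away, overlapped the HE and HP sites of this element but not the MAC site. Upstream, MES and HB shared a site 12.1 kb away, and HE alone had one at 7.8 kb. In HP and MAC the promoter and the farther downstream element were all that remained.

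Id2, which encodes an Id protein of many lymphoid and myeloid cells, had 4 sites at MES, 3 at HB, 4 at HE, 3 at HP and 9 at MAC. It was the member with most sites in MAC, where 2.00% of genes had 9 or more. The promoter site was 800 bp wide at MES, 1200 bp at HB, 1600 bp at HE, 900 bp at HP and 1000 bp at MAC. The promoter was flanked by 1 element on each side, both listed at all 5 stages. The downstream one lay 3.5 kb away and was 800 bp wide at MES, 1000 bp at HB, 900 bp at HE, 600 bp at HP and 800 bp at MAC (chr12:25092176-25092975). The upstream one lay 3.0 kb away in HB and MAC, with 700 bp at MES, 1000 bp at HB, 1600 bp at HE, 300 bp at HP and 800 bp at MAC, and its HE site was shifted to 3.6 kb. The added sites of MAC lay farther upstream, at 5.1, 16.9, 47.6, 81.9, 93.2 and 94.4 kb, and the last pair overlapped the HE site 94.3 kb away. The other 4 were between 100 and 400 bp wide. In lists of equal length Id2 had 5 sites at MAC and 3 or 4 in each other list.

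Id3 had 4 sites at MES, 5 at HB, 8 at HE, 4 at HP and 5 at MAC. It was, with Bmp4, one of the 2 members of which every merged region was shared by at least 2 stages. The promoter site was 900 bp wide at MES, 1300 bp at HB, 1800 bp at HE, 1200 bp at HP and 1000 bp at MAC. An element 3.3 kb upstream was listed at all 5 stages, with 1000 bp at MES, 1000 bp at HB, 1100 bp at HE (chr4:136140008-136141107), 1000 bp at HP and 500 bp at MAC. An element 8.7 kb upstream was listed in MES (1500 bp), HB (1600 bp) and HE (1800 bp), and one 4.2 kb downstream in MES (900 bp), HB (1100 bp), HE (1600 bp) and HP (700 bp). A later set lay upstream, with an element at 26.7 kb in HE, HP and MAC and 2 more at 23.5 and 20.5 kb in HE and MAC. The full HE list held all 8 elements of Id3, the early ones and the late ones, but in lists of equal length Id3 had 4 sites at MES, 5 at HB, 4 at HE, 4 at HP and 3 at MAC. All were intergenic except the promoter site, which reached into the gene.

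**Figure D4:**
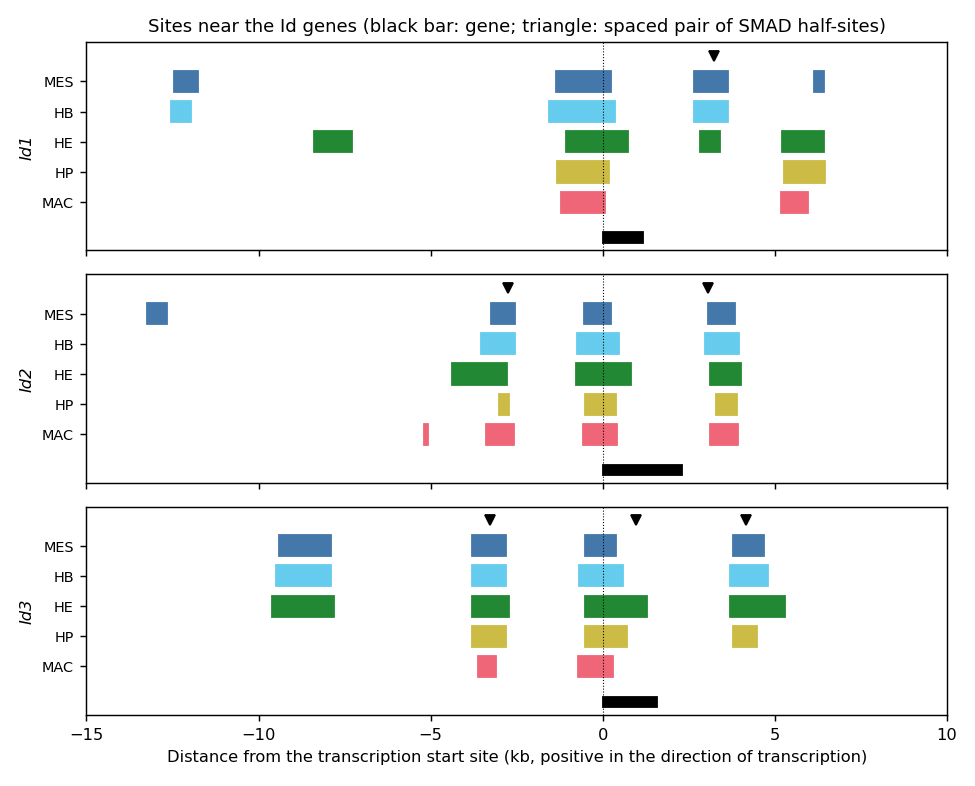
DHSs assigned to Id1, Id2 and Id3 over 15 kb before and 10 kb after the TSS, with 1 row per stage, the gene as a black bar, and a triangle where GGCGCC is followed after 5 bases by GTCT inside a listed site. All 6 triangles of the 10 genes lie here, and 5 of the 6 lie between 2.8 and 4.2 kb from a TSS.

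A short sequence recurred beside the Id genes, in 6 of their 22 merged sites, and the choice of genes did not use it. It was searched for as a known motif of the pathway that has the Id genes as classical targets. Its presence beside these genes is therefore not independent of the choice of genes and motif. SMAD1 and SMAD5 with SMAD4 are known to bind GGCGCC followed after 5 bases by GTCT, the spaced pair of BMP response elements. The pair was searched on both strands, and GGCGCC is its own reverse complement. It occurs 447 times in the whole mm10 genome, and 97 of these (21.7%) lay inside a listed site, although the sites merged over the stages cover 2.29% of the genome. Within reach of the 10 genes it occurs 6 times. All 6 lay inside a listed site and all were nearest to an Id gene. Of the 65654 merged sites of the series 95 (0.145%) held the pair, against 6 of the 108 merged sites of the members (5.56%) and 6 of the 22 of the Id genes. This count over whole sites was chosen after the data had been seen. In the central 500 bp of the merged regions the pair was found in 4 of 121 member regions (3.31%) and 0.0828% of all regions, and in the central 200 bp in 1 of 121 (0.826%) and 0.0363%.

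The matches stood at like distances from the 3 genes. At Id1 the pair lay 3.2 kb downstream of the TSS (chr2:152739471-152739485), in sites of MES, HB and HE. At Id2 one pair lay 2.8 kb upstream, in sites of MES, HB, HP and MAC, and 2 bases from the edge of the HE site, which is less than the bins of 100 bp in which sites were called. The other lay 3.0 kb downstream, fully inside a site of HB alone, across the edge of the MES site and 73 and 68 bases from the HE and MAC sites. At Id3 one pair lay 3.3 kb upstream in sites of all 5 stages, one 4.2 kb downstream in sites of MES, HB, HE and HP, and one 1.0 kb downstream in an intron, inside the wide HE promoter site only. The pair and 60 bases on each side are shown for the 4 intergenic matches of Id2 and Id3, with GGCGCC and GTCT in capitals, on the strand that reads GGCGCC first (mm10). The windows are chr12:25098794-25098928 (minus strand) for Id2 upstream, chr12:25092984-25093118 (minus) for Id2 downstream, chr4:136140480-136140614 (plus) for Id3 upstream and chr4:136147921-136148055 (plus) for Id3 downstream.
Id2 upstream: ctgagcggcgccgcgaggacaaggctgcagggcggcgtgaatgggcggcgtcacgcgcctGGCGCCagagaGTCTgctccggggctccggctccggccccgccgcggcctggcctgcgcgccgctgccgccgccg
Id2 downstream: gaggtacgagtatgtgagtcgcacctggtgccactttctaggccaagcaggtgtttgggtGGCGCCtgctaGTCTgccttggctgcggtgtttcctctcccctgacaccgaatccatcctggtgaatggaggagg
Id3 upstream: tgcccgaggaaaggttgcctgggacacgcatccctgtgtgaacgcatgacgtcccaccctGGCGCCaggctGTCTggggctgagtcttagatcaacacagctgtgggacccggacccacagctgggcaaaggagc
Id3 downstream: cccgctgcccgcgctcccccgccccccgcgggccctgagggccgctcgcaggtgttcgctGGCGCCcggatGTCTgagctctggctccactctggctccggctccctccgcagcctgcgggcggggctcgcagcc
In all 6 matches the pair reads in the direction of transcription of its gene. The bases around it differed, with 23 CpGs in the window upstream of Id2, 16 downstream of Id3, 6 upstream of Id3 and 5 downstream of Id2. No SMAD binding was measured in these samples, so a match describes the sequence alone.

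GGCGCC alone was found in 13 of the 110 member regions beyond 1 kb (11.8%) and in 5.14% of all such regions, and with promoter regions included in 14.9% and 11.5%. CpG-rich sequence was also more frequent beyond 1 kb, in 7.27% of member regions and 3.77% of all regions, and its part in the count of GGCGCC was not tested. The palindromic SMAD box GTCTAGAC was found in 1 of 121 member regions, at the promoter of Smad7 (0.826%), and in 0.532% of all regions. The motifs of blood and mesoderm factors, on either strand, were at shares near those of all regions. The TEAD core CATTCC was in 28.1% of member regions and 26.7% of all regions, the GATA motif AGATAA in 26.4% and 23.1%, the RUNX motif TGTGGT in 31.4% and 33.2%, and the ETS motif GAGGAA in 45.5% and 49.6%. Each spaced pair also counts as a match to GGCGCC alone.

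To compare the members with the series as a whole, sites of all stages were reduced to 500 bp around their middle and merged at the minimum overlap that the study used. The members had 121 of the 68846 merged regions. Of the 121, 67 (55.4%) were open in a single stage, as were 60.2% of all regions, and 9 (7.44%) were open in all 5 stages, as were 13.2%. The middle lay within 1 kb of a TSS in 11 of the 121 member regions. The same held for 14590 of all 68842 regions outside the mitochondrial genome, and the shares were not split by this distance. Regions open only in MAC made up 16.5% of member regions and 31.0% of all regions, and regions open only in HE 20.7% and 17.1%. In all, 32.2% of member regions and 54.4% of all regions were open in MAC. The share of member regions was above that of all regions in the other 4 stages, at 33.9% and 31.9% for MES, 41.3% and 35.9% for HB, 53.7% and 48.4% for HE, and 26.4% and 25.8% for HP. When the sites were merged at their full width, which joins broad sites with shifted middles such as those at the Id1 promoter, 50.9% of 108 member regions and 57.6% of all regions were open in a single stage, and 10.2% and 14.9% in all 5.

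Sites were also followed from each stage to the next. Among member sites over 1 kb from a TSS, 24 of 32 at MES (75.0%) were overlapped by a site in HB, as were 69.6% of all such sites. From HB to HE it was 24 of 42 (57.1%) against 48.8%, and from HE to HP 18 of 56 (32.1%) against 27.4%. From HP to MAC it was 7 of 25 (28.0%) against 43.9%, the only step at which these member sites lay below all such sites. Within 1 kb of a TSS the shares were 9 of 9 against 94.7% from MES to HB, 8 of 8 against 91.3% from HB to HE, 7 of 9 against 74.1% from HE to HP, and 7 of 7 against 85.6% from HP to MAC. Both classes together put the members below all sites at each step, at 80.5% and 82.9%, 64.0% and 69.4%, 38.5% and 45.5%, and 43.8% and 67.3% in the same order. Sites near a TSS, which were overlapped more often, made up 9 of 41 member sites in MES and 11645 of all 21949. Neighboring sites of 1 gene are not independent, and with 1 list per stage these shares were not tested.

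**Figure D5:**
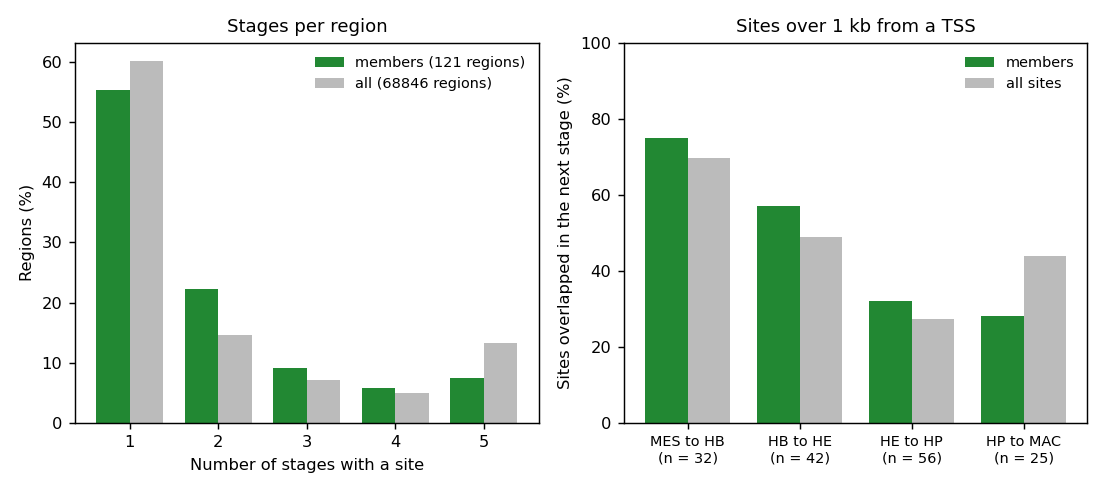
Left, share of merged regions (percent) by the number of stages in which they are open, for the 121 member regions (green) and all 68846 regions (gray). Right, share of sites over 1 kb from a TSS (percent) that a site of the next stage overlaps, for members (green, n given below) and all sites (gray). Members lie above all sites at the first 3 steps and below them from HP to MAC (28.0% against 43.9%).

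Promoter sites were also listed for 35 other genes of the pathway, of which 26 had a promoter site in MES, 27 at HB, 29 at HE, 21 at HP and 20 at MAC. The shares of all genes given above for members are the background here too, with 34.3% of genes without a promoter site at any stage and 5 of 35 here. Of 6 ligand genes 4 had none. These were Bmp5, Gdf2, Bmp10 and Tgfb1. Bmp6 had one from MES to HP and Nodal in HB and HE, so 0 of 6 ligands had a promoter site in MAC. Of 10 receptor genes, 7 had one at all 5 stages, among them Bmpr1a, Bmpr2 and Acvr1. Acvrl1 and Eng, which encode the endothelial receptor ALK1 and its coreceptor endoglin, had promoter sites in HE only and in HE and MAC. The Smad2, Smad3 and Smad4 promoters had a site at every stage and that of Smad9 at none. Of 9 inhibitors the secreted antagonists Nog, Grem1 and Fst had sites in MES, HB and HE and Chrd in HE only, while the intracellular Ski, Skil and Smurf2 and the membrane protein Bambi had them at all 5. Smurf1, a ubiquitin ligase, lacked one in HE alone. Among targets and partners, Id4, Tcf3 and Tcf4 had sites at all 5 stages, the homeobox genes Msx1 and Msx2 from MES to HP, and Tcf12 in all but HP.

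Genes with counts most like those of the richest members were found by the summed absolute difference over the 5 lists. For Smad7 they were Dlc1, with 5 sites at MES, 11 at HB, 18 at HE, 3 at HP and 3 at MAC, and Msi2, at distances of 7 and 10. For Smad6 they were Rbpms (9, 12, 14, 7 and 5 sites in the same order) and Dab2ip, at distances of 3 and 5.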

How the data were processed

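DNaseI-seq was carried out on 5 sorted populations, with 1 list of DHSs for each. For MAC the label gives 2 replicates under 1 sample. According to the methods, the authors aligned reads with Bowtie to mm10, kept unique reads, removed duplicates and called DHSs with DFilter in bins of 100 bp. The labels name Bowtie and HOMER without their roles, so which caller set the deposited widths is taken from the methods alone. Versions are not given in the sources used here. The deposited lists give only where each DHS begins and ends on a chromosome, without a score or read count, so the depth per sample and the precision it gives are unknown from these files, and the totals of aligned reads that the study gives were not used here. Positions were compared with RefSeq genes and TSSs of GRCm38.p6 in Python 3.11.15 with numpy 2.4.6 and pysam 0.24.0, and figures were drawn with matplotlib 3.10.9. The assignment of sites was tested on simulated data. Regions named are the promoters, the elements of members with few regions and the widest sites. Pathway and marker genes are named by their promoter pattern, and the 2 nearest genes by count were sought for the 3 members with most merged regions, of which the result for Smad1 is not reported here. The members, gene lists and motifs were chosen with earlier results of these data known. No test was made, and alternatives changed the promoter distance, the outer reach, the annotation, the site width and the merging.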

Additional observations from a re-analysis of the deposited data

How the results depend on the processing

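The alternatives covered the promoter distance, the outer reach, the annotation, the site width, the merging and the motif window. Of the values they gave, 69 stayed within 1.5 times the reported count and 21 did not, and most of the latter came from the 2 limits on width. With every list cut to its widest 17734 sites, the MAC promoters with a site fell from 7 to 4 members and the promoters with a site at all 5 stages likewise to 4, since Smad1, Smad5 and Smad6 lost MAC. Member sites then numbered 34 in HE and 14 in MAC, and merged regions 72, of which 35 were open in a single stage and 3 in all 5. With only those sites kept that were no narrower than the median of their list, member sites numbered 19 at MES, 27 at HB, 35 at HE, 13 at HP and 16 at MAC, and merged regions 56, with 31 in a single stage and 5 in all 5. Both settings keep fewer sites by construction. The reported values rest on intervals without read counts, so they do not show how open a site was, and the depth of a list was not set against its length. No paired analysis was possible because each stage had 1 list. The GENCODE start sites and the motif search in whole sites were added after the data had been seen.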
